A study of Mus musculus with 8 samples.

Results

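The 82 genes described here encode the protein parts of the cytosolic ribosome. They were chosen by symbol (Rps or Rpl followed by a number, the acidic stalk genes Rplp0 to Rplp2, and Rpsa) from the 17001 genes listed for both genotypes of the study. Of them 31 belong to the small subunit, 43 to the large subunit and 3 to the acidic stalk, and 5 are paralogs (Rps27l, Rpl22l1, Rpl39l, Rpl3l and Rpl7l1), that is, second gene copies whose product resembles a ribosomal protein. No gene that fits the symbols was listed for 1 genotype only. The genes were followed in 15604 oligodendrocytes of 8 libraries and in 7421 microglia of the 4 Rag1-/- libraries.

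All mice were 24 months old and males. The wild-type (WT) groups, labelled C57BL/6, comprised 2 libraries from gray matter and 2 from white matter, and the mutant groups comprised 1 library from gray and 3 from white matter. The mutants carried the Rag1tm1Mom deletion, which leaves mice without mature T and B cells, in every cell. Their strain label reads NOD.129S7(B6)-Rag-1tm1Mom/J, whereas the methods name a line on the C57BL/6J background, and the labels and methods were not reconciled. Gray matter was frontal cortex and white matter held the optic tract, the medial lemniscus and the corpus callosum. Tissue was dissociated in the presence of actinomycin D, which blocks transcription, and live (SYTOX Blue-negative) cells were loaded on the 10x Chromium platform, which counts the 3′ ends of transcripts by unique molecular identifiers (UMIs). Each library pooled tissue of 1 or several mice, and the study's list of mice gives the same mice for WT gray and white libraries of the same number and for Rag1-/- gray 1 and white 1. In Rag1-/- mice, gray 1 and white 1 were batch 1, and white 2 and white 3 were batch 2. WT libraries numbered 1 and 2 are also titled batch 1 and batch 2, so mouse pool and batch cannot be told apart in WT. Genotype coincided with the experiment, the Cell Ranger version and the gene list, so these cannot be told apart.

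Ribosomal proteins are built in the cytoplasm, imported into the nucleolus, assembled there with ribosomal RNA and exported as the small subunit, which decodes the message, and the large subunit, which forms peptide bonds. Their mRNAs are among the most abundant of any cell and are short and stable. Most start with a run of pyrimidines at the very 5′ end, the terminal oligopyrimidine (TOP) motif, through which the kinase mTOR and the RNA-binding protein LARP1 adjust their translation. Microglia are the resident macrophages of the brain, and the study's clusters of them include white matter-associated microglia (WAM).

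The start site sequences are shown because the motif that these genes are known for lies there. Of the 82 genes, 62 had an entry among the RefSeq promoters of GRCm38.p6, and for each gene the most upstream start with an entry was taken; for Rps27l the RefSeq gene itself begins further upstream, at position 66944624. A window of 30 bases, 15 before the start and 15 from it on, held an unbroken run of at least 6 C or T bases in 35 of the 62 genes (56.5%), against 28.4% of the genes tested in microglia and 34.8% of 69 genes for mitochondrial ribosomal proteins. The windows below are from genes that the results name, in the gene's own orientation. Capitals mark the runs, and the absence of capitals says only that no such run stands in that window. A run was counted anywhere in the window, so it need not be a TOP motif. Those of Rpl13 and Rps27l lie wholly before the annotated start.
Rps18 (chr17:33955651-33955680, minus strand): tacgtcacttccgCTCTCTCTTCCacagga
Rps21 (chr2:180257364-180257393, plus strand): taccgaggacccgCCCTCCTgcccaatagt
Rpl13 (chr8:123102335-123102364, plus strand): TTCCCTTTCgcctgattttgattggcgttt
Rpsa (chr9:120127751-120127780, plus strand): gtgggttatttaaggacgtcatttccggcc
Rplp0 (chr5:115559452-115559481, plus strand): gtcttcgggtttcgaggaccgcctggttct
Rplp2 (chr7:141447636-141447665, plus strand): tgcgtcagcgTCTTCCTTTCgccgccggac
Rps27l (chr9:66946071-66946100, plus strand): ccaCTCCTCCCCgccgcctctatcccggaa
Rpl22l1 (chr3:28805493-28805522, plus strand): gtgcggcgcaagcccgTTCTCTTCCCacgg
Rpl7l1 (chr17:46782642-46782671, minus strand): gtgaggctgcgcaagcgcagtagctgaagc
The run reached 11 bases in Rps18 and 10 in Rplp2 and Rpl22l1, and Rps27l and Rpl22l1, both paralogs, had a run, whereas the paralog Rpl7l1 had none.

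The libraries held 584 to 7631 cells and 4645054 to 57899352 UMIs, with a median of 6435 to 10375 UMIs per cell, and 92 of 29539 distinct barcodes occurred in more than 1 library. Levels are given as CPM, the UMIs of a gene per 1000000 UMIs of the cells summed. Oligodendrocytes of every library had all 8 oligodendrocyte markers, and their summed level was 45219 to 53519 CPM, against 81.1 to 929 for the 8 microglia markers. In microglia the same lists reached 378 to 1664 and 42743 to 44343. Rag1 itself gave 37 to 108 UMIs over all cells of each Rag1-/- library and 0 to 24 in WT libraries; a 3′ tag that lies outside the deleted part checks nothing. The T cell receptor transcript Trac gave 3 to 14 UMIs in Rag1-/- libraries and 14 to 1202 in WT libraries. Cd3e, a chain of the receptor complex, gave 132 UMIs in Rag1-/- white 1, 0 in the other Rag1-/- libraries and 17 to 1812 in WT libraries. A value was called where edgeR's quasi-likelihood test on counts summed per library gave a Benjamini-Hochberg adjusted p under 0.05 over all genes tested. Libraries were the replicates, and p-values measure the spread between libraries, of which several share a pool, a batch or a dissection.

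In oligodendrocytes, the myelinating cells of the brain, the 82 genes took between 4.34% and 5.06% of all UMIs in each library. The share was 4.67% and 4.52% in WT gray matter, 5.01% and 4.34% in WT white matter, 4.61% in Rag1-/- gray matter, and 4.34%, 4.97% and 5.06% in Rag1-/- white matter. The groups overlapped, and the lowest and the highest share both came from Rag1-/- white matter, of batch 1 and batch 2. WT white matter averaged 4.68% ± 0.471 (SD, n = 2) and Rag1-/- white matter 4.79% ± 0.393 (SD, n = 3). Small subunit genes made up 1.88% to 2.19% of UMIs, large subunit genes 2.24% to 2.61% and the acidic stalk 0.186% to 0.226%.

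**Figure D1:**
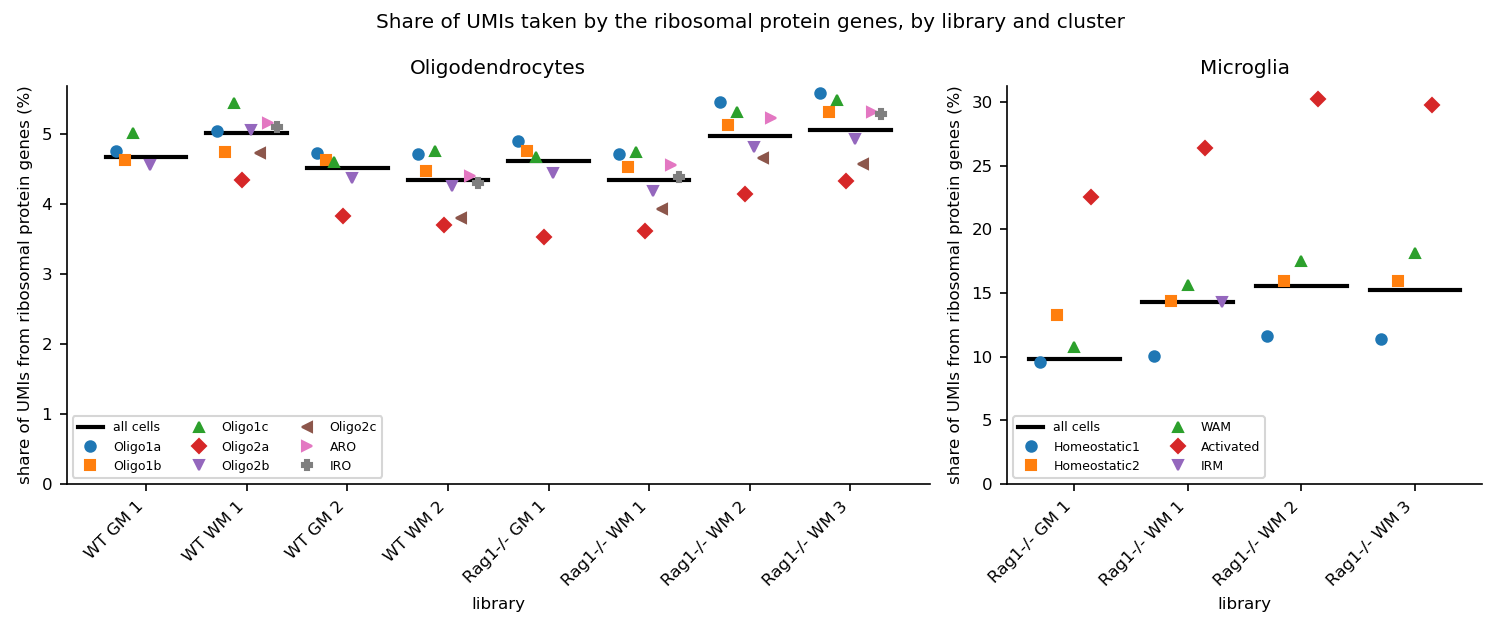
Share of all UMIs (%) from the 82 ribosomal protein genes in each library, for oligodendrocytes (left) and for microglia of the Rag1-/- libraries (right). Black bars are all cells of a library and symbols are its clusters with at least 20 cells; oligodendrocyte libraries lie between 4.34% and 5.06%, microglia of gray matter at 9.82% and those of white matter between 14.3% and 15.6%.

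Between white and gray matter, none of the 80 ribosomal protein genes that passed the filter on low counts was called in oligodendrocytes (edgeR; of all genes tested, 0.742% were called higher and 0.260% lower in WT, 1.00% in all, and 0.291% higher and 0.145% lower in Rag1-/-, 0.436% in all). No member had an unadjusted p under 0.05 (edgeR) in either genotype, beside 1251 of 13069 genes in WT and 1260 in Rag1-/-. DESeq2 called no member, beside 174 genes higher and 107 lower of 16616 in WT. In Rag1-/- it called 135 genes higher and 68 lower. Rpl39l and Rpl3l did not pass the filter. In WT mice the median log2 fold change of the members was 0.05 (white over gray) beside -0.01 for all 13069 genes tested. Above 0 were 54 of 80 members and 6394 of all genes. In Rag1-/- mice the median was 0.08 beside 0.02, with 64 of 80 members and 6920 of all genes above 0. The sign differed between pools of the same genotype, which in WT are also batches. White over gray was above 0 for 72 of 80 members in WT pool 1 (5841 of 13069 genes) and for 26 of 80 in WT pool 2 (6723 genes). It was above 0 for 13 of 80 (7086 genes) when Rag1-/- white 1 was set against gray 1 of the same batch. Batch 2 white matter exceeded the batch 1 gray library in 58 and 64 of 80 members, beside 6335 and 6227 of all genes. With the mouse pool as a block, which the shared pools allow in WT, edgeR called 2 members lower in white matter, Rpl13a and Rpl27, beside 6.15% of 11309 genes called lower and 12.2% called in either direction. Without Rag1-/- white 1, 2 members were called in Rag1-/- mice, Rpl5 among them, beside 2.00% of all genes. The difference between the genotypes in the tissue effect called 0 members and 0 of 13069 genes (0.00%; edgeR; 0 members and 236 genes at an unadjusted p under 0.05, and 0 members and 3 genes by DESeq2).

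Rpsa, a small subunit protein that also serves as a laminin receptor, is given as an example. Its level in oligodendrocytes was 925 and 926 CPM in WT gray matter, 982 and 828 in WT white matter, 868 in Rag1-/- gray matter and 784, 949 and 976 in Rag1-/- white matter. The WT white libraries lay on either side of the gray ones, and so did the Rag1-/- white libraries. Of the 80 members, 36 had WT white libraries on either side of the gray ones, 61 had Rag1-/- white libraries so placed and 29 both. Over all genes tested, 31.5% were higher and 29.8% lower in every Rag1-/- white library than in the gray one. How many of all genes lay on either side was not counted for WT or for both genotypes. Among the members with the largest mean counts were Rps21 (952 to 1264 CPM over the 8 libraries), Rps27a, which is made as a fusion with ubiquitin (916 to 1200), Rpl13 (907 to 1098) and Rps29 (792 to 1195). These values are tags per transcript end and carry no correction for length.

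The acidic stalk, formed by Rplp0 and the P1 and P2 proteins, recruits the elongation factors to the large subunit. Rplp0 ranged from 569 to 668 CPM over the 8 oligodendrocyte libraries and Rplp2 from 447 to 624. Rplp1 was 757 and 806 in WT gray matter and 949 and 871 in WT white matter, and these groups did not overlap (of all genes tested, 19.1% were higher without overlap and 19.2% lower). Its log2 fold change was 0.23 ± 0.12 (SE) and it was not called (edgeR adjusted p = 0.622). In Rag1-/- mice Rplp1 was 809 in the gray library and 869, 961 and 1012 in the white ones. Over the members, 18 of 80 were higher in WT white matter without overlap and 3 were lower. In Rag1-/- mice 9 were higher and 10 lower, beside 31.5% and 29.8% of all genes.

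The paralogs were low. Rpl22l1, a paralog of Rpl22, ranged from 151 to 196 CPM in oligodendrocytes, Rps27l from 137 to 163 and Rpl7l1, a nucleolar relative of Rpl7, from 36.9 to 47.2. Rpl39l, a paralog best known from male germ cells, gave 4 UMIs in all oligodendrocytes together. Rpl3l, the striated muscle form of Rpl3, gave 0 of 164708288 UMIs, which allows a level of up to 0.0182 CPM (3 counts over all libraries; counting error only).

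Between genotypes, 1 of 80 members was called in white matter oligodendrocytes (of all genes tested, 0.689% were called higher, 0.199% lower and 0.888% in all). Rpl13a (chr7:45125563-45128745), a large subunit protein that is also released from the ribosome to silence inflammatory mRNAs, was 159 and 65.6 CPM in WT white matter and 331, 570 and 607 in Rag1-/- white matter. Every Rag1-/- library lay above every WT library. WT white matter averaged 112 ± 65.8 (SD, n = 2) and Rag1-/- white matter 503 ± 150 (SD, n = 3), a log2 fold change of 2.26 ± 0.41 (SE, edgeR adjusted p = 0.0438). In gray matter Rpl13a was 158 and 98.9 in WT mice and 369 in the Rag1-/- library, with a log2 fold change of 1.61 ± 0.49 (edgeR adjusted p = 0.608). The white matter difference was called within each of the 7 oligodendrocyte clusters with enough cells, with log2 fold changes of 2.19 to 2.59. Under 7 of 25 alternatives it was not called. The log2 fold change was 1.74 without WT white 2 (edgeR adjusted p = 0.131), 2.15 without Rag1-/- white 2 (0.159), 2.07 without Rag1-/- white 3 (0.141) and 1.61 with the Rag1-/- white matter of batch 1 alone (0.557). It was 2.19 with library totals (edgeR adjusted p = 0.0529), 2.24 with white matter libraries alone (0.0718) and 2.28 with these and the batch number as a block (0.187). The adjusted p over the 25 alternatives was 0.000896 to 0.557.

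Rpl27 (chr11:101442245-101445596), another large subunit protein, behaved alike. It was 296 and 149 CPM in WT white matter and 410, 468 and 503 in Rag1-/- white matter, without overlap, and was not called (log2 fold change 1.12 ± 0.27, edgeR adjusted p = 0.172). Rpl27 was named after its values were seen, as were the other members without overlap, Rps24, Rps26 and Rps4x (higher in Rag1-/-) and Rps15 and Rps2 (lower). These 5 higher and 2 lower members of 80 stand beside 9.73% and 17.8% of all genes tested. Processed pseudogenes of 5 members (Rpl13a, Rpl27, Rpl36, Rpl7a and Rps12) were listed for WT mice and not for Rag1-/- mice. In white matter oligodendrocytes, the mean CPM in WT and Rag1-/- mice was 496 and 540 for Rpl36. It was 416 and 413 for Rpl7a, and 597 and 590 for Rps12. The authors' filter on genes seen in few cells can also remove a gene from a table, and whether reads were shared was not tested. Rpl27-ps3 took 15.2 to 33.0 CPM in WT oligodendrocytes and Rpl13a-ps1 took 0.768 to 5.81. With these counts added to the parent genes, the log2 fold changes in white matter were 2.23 for Rpl13a (edgeR adjusted p = 0.0482) and 0.97 for Rpl27 (0.261).

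Over the 80 members the median log2 fold change over WT was 0.08 in white matter and 0.09 in gray matter, beside 0.01 and -0.02 for all genes tested. The members went both ways, from -0.44 (Rpl35) to 2.26 (Rpl13a) in white matter and from -0.75 (Rpl5) to 1.61 (Rpl13a) in gray matter. In gray matter 0 of 80 members were called (of all genes tested, 0.451% were called higher and 0.0842% lower, 0.536% in all). An unadjusted p under 0.05 (edgeR) was reached by 5 members, beside 6.30% of all genes. DESeq2 called no member, beside 73 genes higher and 17 lower of 16616. In the single Rag1-/- gray library 39 members were higher than in both WT gray libraries and 25 lower than in both, beside 27.4% and 38.8% of all genes. Rpsa had a log2 fold change of 0.06 ± 0.13 in white matter and Rplp0 one of 0.02 ± 0.11, neither of them called (edgeR adjusted p = 0.970 and 0.988).

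**Figure D2:**
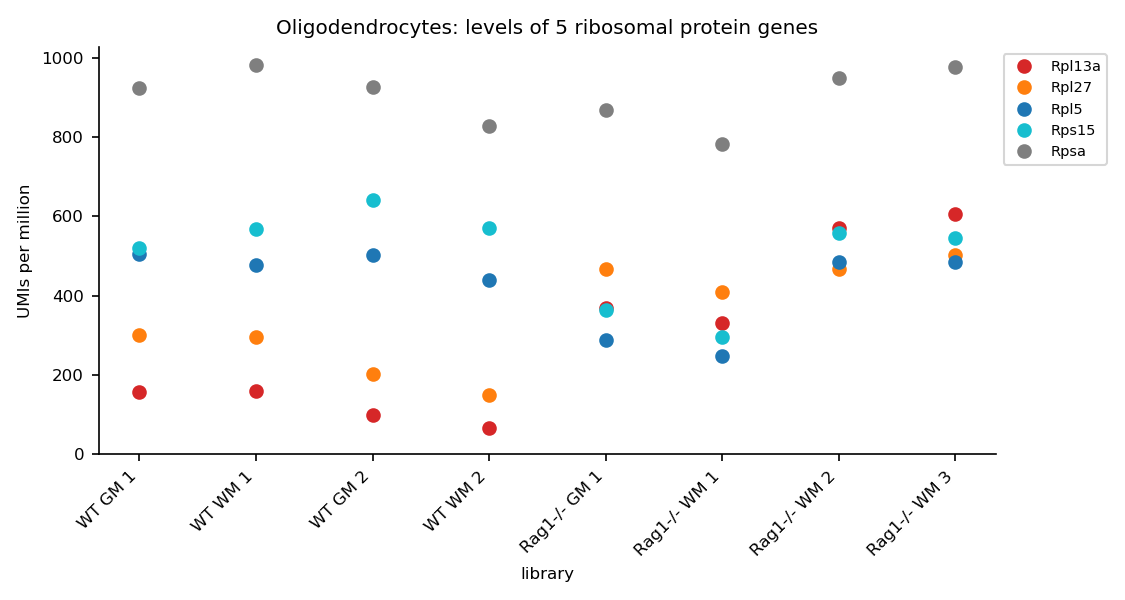
Levels (CPM) of 5 ribosomal protein genes in the oligodendrocytes of each of the 8 libraries, 1 point per library and gene. Rpl13a and Rpl27 are higher in the 4 Rag1-/- libraries than in the 4 WT libraries, while Rpl5 and Rps15 are low in the Rag1-/- libraries of batch 1 (GM 1 and WM 1) and at the WT level in batch 2.

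Part of the members moved with the Rag1-/- batch. The methods name a different Cell Ranger version for each Rag1-/- batch, so batch and version cannot be told apart. Rpl5, which with Rpl11 carries 5S ribosomal RNA into the ribosome and can inhibit Mdm2, was 439 to 506 CPM in WT oligodendrocytes. It was 289 and 247 in the Rag1-/- libraries of batch 1 and 484 and 485 in those of batch 2. In microglia of the same libraries Rpl5 was 579 and 649 in batch 1 and 1276 and 1216 in batch 2. Both cell types therefore shared the step between batches. The log2 ratio of batch 2 to batch 1 in white matter was 0.97 in oligodendrocytes and 0.94 in microglia for Rpl5, 0.90 and 0.73 for Rps15, 0.83 and 0.89 for Rpl13a, and 0.81 and 0.82 for Rpl23a. Over 80 members the ratios of both cell types correlated with Pearson's r = 0.944 and Spearman's rho = 0.835, beside a Pearson's r of 0.570 for 11122 genes; the points share libraries, depth and gene models, and the values are a description. The ratio exceeded 0.5 in size in both cell types for 9 of 80 members, among them Rpl12, Rpl13a, Rpl23a, Rpl31, Rpl5, Rps15, Rps23 and Rps6, and for 393 of 11122 genes. Reads from transcripts that overlap ribosomal RNA (Gm42418 and AY036118) took 0.148% and 0.145% of oligodendrocyte UMIs in batch 1 and 0.969% and 0.893% in batch 2, and their part in these ratios was not tested.

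**Figure D3:**
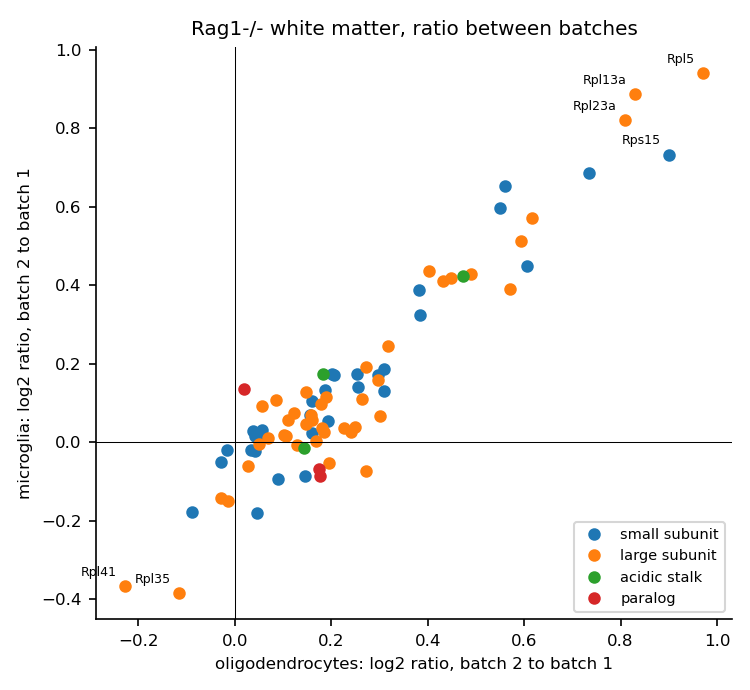
Log2 ratio of batch 2 (mean of 2 libraries) to batch 1 (1 library) in Rag1-/- white matter for 80 ribosomal protein genes, in oligodendrocytes (x axis) and microglia (y axis), 1 point per gene and coloured by group. Rpl5, Rps15, Rpl13a and Rpl23a lie at the upper right, above 0.7 on both axes.

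Clusters of oligodendrocytes, as named by the study, differed in the share of ribosomal protein transcripts. The clusters were drawn from the expression of the same cells, in which these genes may have had a part, so the differences are a description. Oligo2a had the lowest share in each of the 7 libraries with at least 20 of its cells, from 3.52% to 4.35%, and it also had more UMIs per cell (a median of 12768 to 18661) than the oligodendrocytes of its library as a whole (8669 to 12925.5). Against the other oligodendrocytes of the library, 73 of 80 members were lower in every library (all genes tested, 12%), with a median log2 ratio of -0.30 beside -0.04 for all genes. Rps19, a small subunit protein mutated in Diamond-Blackfan anemia, was 274 to 338 CPM in Oligo2a and 386 to 447 in the others. The paralog Rpl22l1 was 151 to 186 in Oligo2a and 151 to 200 in the others, so the ranges overlapped.

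Oligo2c was also low, with 53 of 80 members lower in each of 5 libraries (14.7% of all genes) and a median log2 ratio of -0.14. Its cells were deeper than those of each library as a whole, with medians of 11192.5 to 16629 UMIs. Oligo2b had 21 of 80 members lower in each of 8 libraries (3.80% of all genes). Oligo1a had 16 of 80 higher and 0 lower (3.08% and 6.69% of all genes), with a median log2 ratio of 0.10. Oligo1c was high, with 31 of 80 members higher in each of 8 libraries (4.31% of all genes) and a median log2 ratio of 0.11. Cells of Oligo1a (medians of 7434.5 to 10951 UMIs) and Oligo1c (7517 to 11435) were shallower than each library as a whole. The part of depth in the cluster differences was not tested. In the aging-related oligodendrocytes (ARO), 48 of 80 members were higher in each of 5 white matter libraries and Rps27a was lower (12.5% and 14.7% of all genes), and the median log2 ratio was 0.07. Rpl10a, a large subunit protein, had the largest ratio there, at 0.24, and Rps2 one of 0.20. Counts over 5 and over 8 libraries cannot be ranked against each other. The mean share in ARO was 4.78% in WT and 5.04% in Rag1-/- white matter. It was 4.88% and 5.25% in Oligo1a, and 5.10% and 5.18% in Oligo1c. In the interferon-responsive oligodendrocytes (IRO), 3 members were higher and 3 lower in each of 4 libraries (5.36% and 14.1% of all genes), with a median log2 ratio of 0.02.

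In microglia of Rag1-/- mice, the ribosomal protein genes were higher in white than in gray matter. They took 9.82% of UMIs in the gray matter library and 14.3%, 15.6% and 15.2% in the white matter libraries. The white matter libraries averaged 15.01% ± 0.671 (SD, n = 3), and each lay above the gray one. Mitochondrial transcripts took 2.43% of UMIs in gray matter against 2.60%, 2.85% and 3.02% in white matter, and their part was not tested. Of 81 members that passed the filter, 64 were called higher and 0 lower (edgeR; all genes tested, 2.58% called higher and 0.419% lower). All 81 had a log2 fold change above 0, with a median of 0.86, a fold of 1.81, beside 0.02 for the 12662 genes tested. Small subunit genes were called in 27 of 31 cases (median 0.87), large subunit genes in 33 of 43 (0.84), the acidic stalk in 3 of 3 (0.75) and the paralogs in 1 of 4 that passed (0.79). Libraries did not overlap for 79 of 81 members (15.9% of all genes tested were higher without overlap and 56.3% lower), Rpl35 and Rpl7l1 being the exceptions. The gray side is a single library, and the spread rests on the 3 white matter libraries. DESeq2 called 73 members (2.74% of all genes called higher). Without white 2 edgeR called 1 member, Rpl23 (1.26% of all genes), without white 3 it called 15 (1.78%) and without white 1 it called 78 (12.8%).

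**Figure D4:**
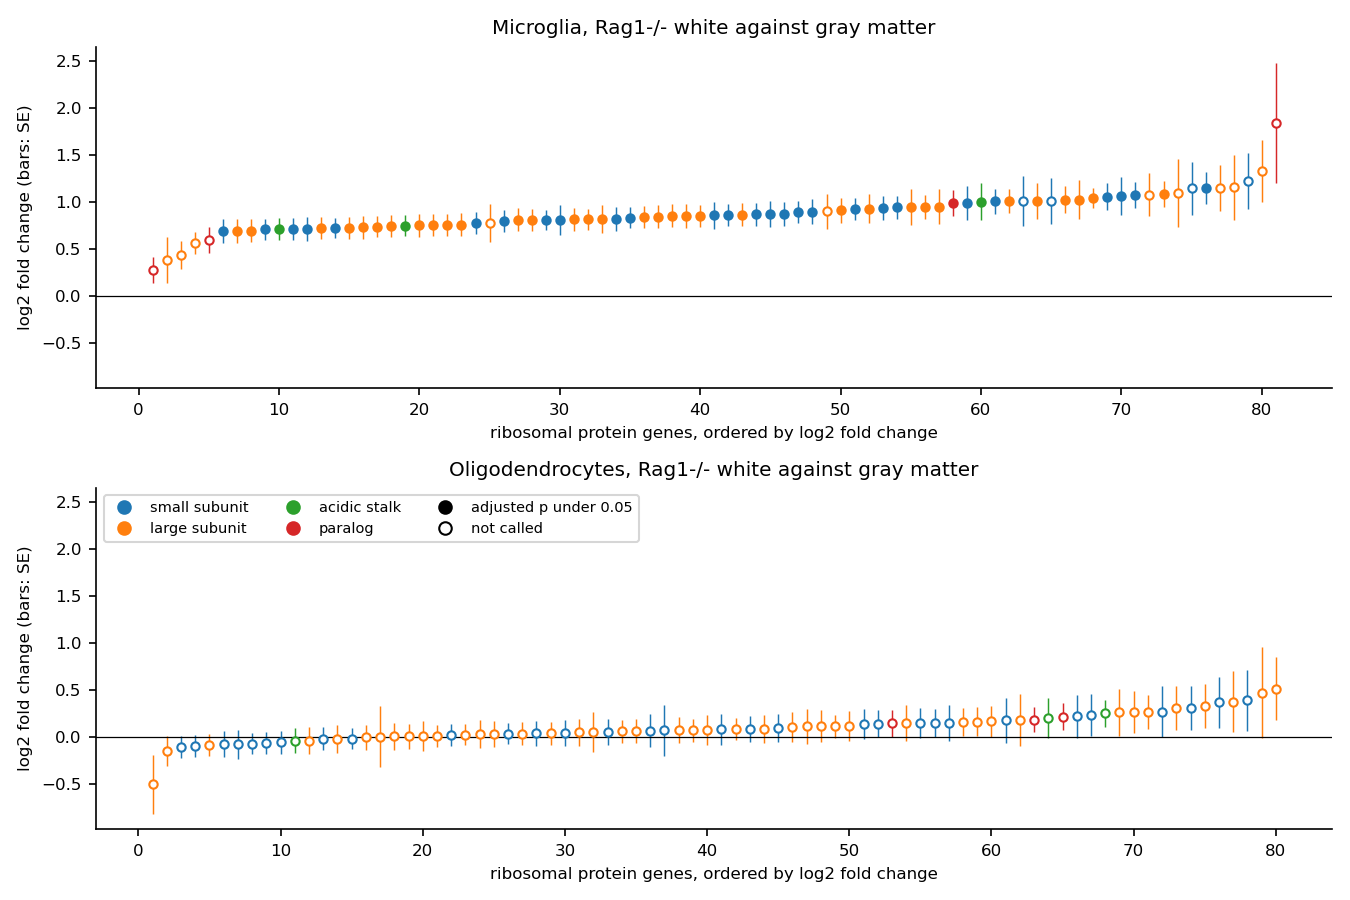
Log2 fold change (white over gray matter, Rag1-/-) with its standard error for each ribosomal protein gene, in microglia (top, 81 genes) and oligodendrocytes (bottom, 80 genes). Filled points have an adjusted p under 0.05: 64 genes in microglia and 0 in oligodendrocytes, with medians of 0.86 and 0.08.

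Among small subunit genes, Rps18, a protein of the 40S head, was 904 CPM in gray matter microglia against 1449, 1817 and 1811 in the 3 white matter libraries. The log2 fold change of 1.15 ± 0.17 (edgeR adjusted p = 0.0149) was the largest among the called members. Rpsa rose from 816 to 1339, 1498 and 1515, by 1.07 ± 0.14 on the log2 scale (edgeR adjusted p = 0.0095). Rps25, which internal ribosome entry sites depend on, was 870 against 1233, 1655 and 1712, and its batch 2 libraries lay above that of batch 1. Rps28 was 1342 against 2379, 2586 and 2110. At the lower end of the called members were Rps3, which lines the entry tunnel for mRNA and also acts in DNA repair, with 1183 against 1514, 1603 and 1711 (log2 fold change 0.69 ± 0.13, edgeR adjusted p = 0.0376), and Rps3a1 with 1590 against 2175, 2180 and 2218. Of the members with large counts in oligodendrocytes, Rps21, Rps27a and Rps29 were each called here, with log2 fold changes of 0.83 to 0.93.

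Among large subunit genes, Rpl32 was 1249 CPM in gray matter microglia and 2037, 2283 and 2369 in white matter (log2 fold change 1.08 ± 0.14, edgeR adjusted p = 0.00949). Rpl13 was 2066 against 2958, 3021 and 3190. Rpl8 was 886 against 1152, 1192 and 1275 and Rpl29 was 721 against 984, 973 and 999, and their log2 fold changes of 0.69 ± 0.13 and 0.69 ± 0.12 were the smallest called in this subunit. Libraries of the white matter lay within a narrow band in both.

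In the acidic stalk, Rplp0 was 1179 CPM in gray matter against 1682, 1666 and 1664 in white matter (log2 fold change 0.75 ± 0.12, edgeR adjusted p = 0.0168). Rplp1 was 3444 against 4388, 4912 and 4979 (0.71 ± 0.12), and Rplp2 was 1114 against 1535, 2098 and 2018 (1.00 ± 0.19). All 3 white matter libraries exceeded the gray library for each gene.

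Of the paralogs, Rpl22l1 was called, at 186 CPM in gray matter against 321, 310 and 302 in white matter (log2 fold change 0.99 ± 0.14, edgeR adjusted p = 0.0119). Rps27l was 143 against 189, 176 and 180 and was not called (0.59 ± 0.14, edgeR adjusted p = 0.0725). Rpl7l1 was 85.3 against 82.0, 93.3 and 87.0, so that the groups overlapped (0.28 ± 0.14, edgeR adjusted p = 0.406). Rpl39l, with 12 UMIs in gray and 97, 9 and 31 in white matter, was 1.14 against 4.32, 1.83 and 3.89 (edgeR adjusted p = 0.222), and Rpl3l gave no UMI.

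**Figure D5:**
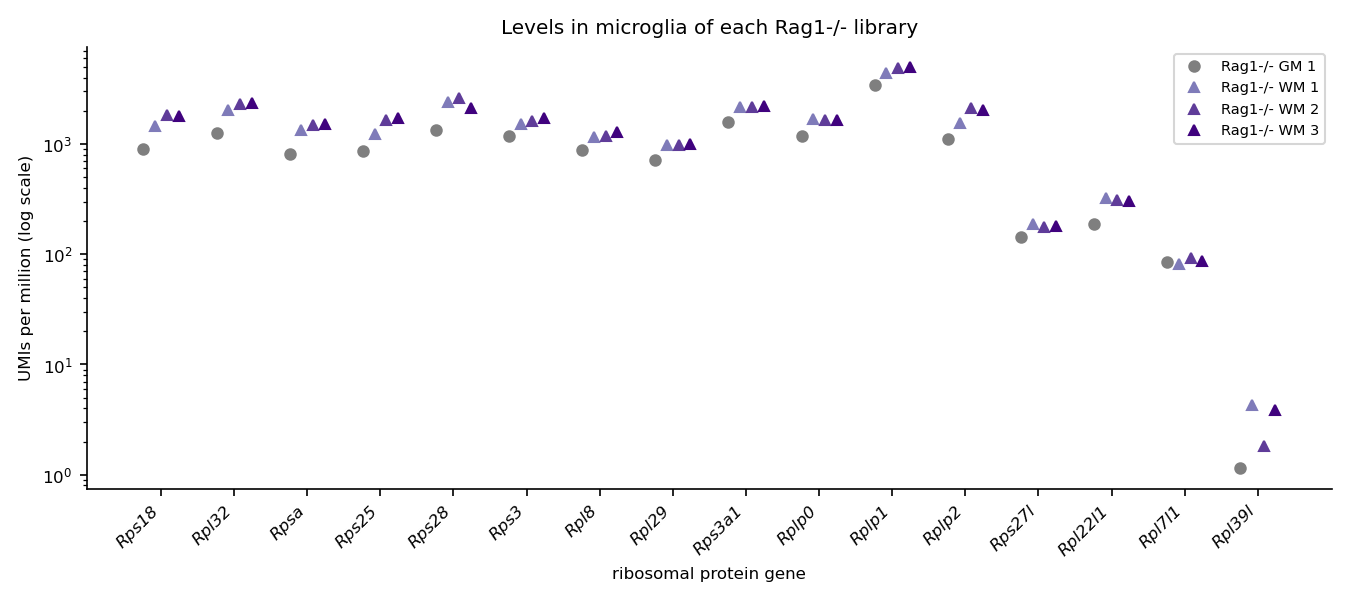
Levels (CPM, log scale) of 16 ribosomal protein genes in microglia of each Rag1-/- library, with the gray matter library as circles and the 3 white matter libraries as triangles. All white matter points lie above the gray one except for Rpl7l1, where white 1 lies below it.

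The 17 members that were not called included Rpl10, Rpl12, Rpl13a, Rpl23a, Rpl31, Rpl35, Rpl39l, Rpl4, Rpl5, Rpl7a, Rpl7l1, Rpl9, Rps15, Rps23, Rps27l and Rps6. All 9 members that moved with the batch are among them. Those 9 were picked by a step between the white matter libraries, whose spread this test rests on. That they were not called is therefore no separate result. Several of the 17 had a larger fold change than the called ones. Rpl23a was 407 CPM in gray matter against 572, 1034 and 988 in white matter (log2 fold change 1.33 ± 0.33, edgeR adjusted p = 0.0882), and Rps15 was 570 against 780, 1301 and 1293 (1.22 ± 0.30, edgeR adjusted p = 0.0833).

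Within batch 1, where gray and white libraries came from the same mice, 80 of 81 members were higher in white matter microglia (3175 of 12662 genes). The median log2 ratio of CPM was 0.50 for the members and -0.22 for all genes. Against the same gray library, batch 2 gave medians of 0.64 and 0.63 with 81 and 80 of 81 members higher (4021 and 3962 of all genes). These ratios are scaled to library totals, and TMM scaling, which the fold changes above use, raised the median over all genes from -0.23 to 0.02. With library totals the members' median was 0.61 and 30 members were called (1.67% of all genes called higher), all of them higher. In cells of 4000 to 8000 UMIs, chosen after seeing the data, the share of UMIs was 9.19% in gray and 12.8%, 13.0% and 13.0% in white matter, and 4 members were called (1.03% of all genes called higher), at a median log2 fold change of 0.60.

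The makeup of the microglia libraries differed between the tissues. The clusters were drawn from the expression of the same cells, in which these genes may have had a part. Values weighted by or within clusters are therefore a description, and the part of the makeup in the tissue difference was not tested. Of the gray matter microglia 94.3% belonged to the cluster Homeostatic1, against 21.7%, 35.1% and 42.3% in white matter, where Homeostatic2 (31.8% to 52.1%) and WAM (17.1% to 22.1%) held most of the rest. Within Homeostatic1 the share of UMIs was 9.57% in gray matter against 10.1%, 11.6% and 11.4% in white matter. With each cluster weighted as in the gray library, the white matter shares were 10.5%, 12.04% and 11.8%, against the 14.3%, 15.6% and 15.2% observed. With the gray clusters weighted as in white 1, white 2 and white 3, the gray matter share was 12.1%, 11.9% and 11.6%, against the 9.82% observed. Within Homeostatic1, 69 of 81 members were higher without overlap (16.3% of all genes), the median log2 fold change was 0.23 and none was called (edgeR, 0.00888% of all genes called higher; 4 members at an unadjusted p under 0.05, beside 2.42% of all genes). Rps18 there was 874 CPM in gray and 917, 1233 and 1248 in white matter, and Rplp0 was 1153 against 1194, 1210 and 1180. Within Homeostatic2 the median was 0.44, beside 0.17 for all genes, with 0 called by edgeR (0.00932% of all genes called higher; 55 members at an unadjusted p under 0.05, beside 7.92% of all genes). Within Activated it was 0.80 with 0 called by edgeR (0.0854% called higher; 54 members at an unadjusted p under 0.05, beside 9.80%). DESeq2 was not run within clusters. Within WAM, 58 of 80 were called (1.71% of all genes called higher) and the median was 1.07. The gray library held 27 to 29 cells of each of these 3 clusters.

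Differences between microglia clusters are again a description. In the Activated cluster, ribosomal protein genes took 22.6% of UMIs in gray matter against 26.4%, 30.2% and 29.8% in white matter. Of 81 members, 78 were higher than in Homeostatic1 in each of 4 libraries and 1 was lower (4.22% and 52.4% of all genes), with a median log2 ratio of 1.33 beside -0.93 for all genes. Rps19 was 2596 to 3314 CPM in Activated and 946 to 1092 in Homeostatic1, and Rpl39 was 5119 to 6567 and 1875 to 2143. Rpl7l1 went the other way in all 4 libraries, at 51.2 to 76.2 against 85.2 to 106. Activated cells were shallow in batch 2, with medians of 2287 and 3007 UMIs against 6751 and 5416 for all microglia. In white 1, white 2 and white 3 they had medians of 1392, 805 and 976 genes, against 2270, 2519 and 2249 for all microglia, and mitochondrial shares of 3.37%, 3.65% and 4.11%, against 2.60%, 2.85% and 3.02%. The part of depth and RNA quality in the Activated values was not tested. In cells of 4000 to 8000 UMIs their share was 25.9%, 29.3% and 31.1% in the 3 white matter libraries. The median number of UMIs from the members was 1121, 1279.5, 738 and 843 per Activated cell and 499.5, 424, 713 and 522 per Homeostatic1 cell, in the order gray 1, white 1, white 2 and white 3.

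Homeostatic2 and WAM lay between these clusters. In Homeostatic2, 77 of 81 members exceeded Homeostatic1 in every library and 1 was lower (5.85% and 29.6% of all genes), with a median log2 ratio of 0.46. In WAM 71 of 81 were higher and 0 lower (8.29% and 35.0% of all genes), with a median of 0.49. Rpsa had ratios of 0.68 and 0.93 in these clusters and Rps2, which forms part of the mRNA entry site, 0.67 and 0.98, whereas Rplp1 had 0.31 and 0.30. In interferon-responsive microglia (IRM), of which white 1 alone held at least 20 cells (37), the share was 14.3%.

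Microglia had more ribosomal protein transcripts than oligodendrocytes of the same library. Of 80 members 79, all but Rpsa, were higher in microglia in each of 4 Rag1-/- libraries (40.5% of all genes), with a median log2 ratio of 1.44. The mixture of members differed too. Of all ribosomal protein UMIs, Rps29 took 3.47% to 4.23% in microglia and 1.96% to 2.36% in oligodendrocytes, Rplp1 3.08% to 3.51% and 1.73% to 1.98%, and Rpl10a 0.864% to 1.01% and 0.491% to 0.536%. Rpsa took 0.832% to 0.996% in microglia and 1.78% to 1.91% in oligodendrocytes, Rpl4 0.305% to 0.381% and 0.653% to 0.808%, and Rps27l 0.113% to 0.145% and 0.296% to 0.322%. These ranges over 4 libraries did not overlap. The genes were named after their values were seen, as the largest and smallest ratios and members already described, and the values are a description.

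The other genes of translation were read against the 2.58% (edgeR) and 2.74% (DESeq2) of all genes called higher in white matter microglia. Of 4 ribosomal genes outside the symbol rule, all had a log2 fold change above 0 (median 0.86), 3 had an unadjusted p under 0.05, DESeq2 called 3 and edgeR called 1: Fau, which encodes the small subunit protein eS30 as a fusion, at 3416 CPM in gray and 5158, 4703 and 4764 in white matter. Rack1, a scaffold on the small subunit, had a log2 fold change of 0.96 ± 0.20 and was not called (edgeR adjusted p = 0.0504). Of 35 translation factors, 2 were called higher and 0 lower (median 0.37): Tpt1, a TOP mRNA that encodes an abundant growth-related protein, and the elongation factor subunit Eef1b2, at 0.79 and 0.78 on the log2 scale. In all 19 of the 35 had an unadjusted p under 0.05, beside 15.4% of all genes, and DESeq2 called 8. Of 41 ribosome biogenesis genes, Npm1, a nucleolar chaperone, was called (0.76; list median 0.23), and DESeq2 called 1 gene of the list. Of 9 host genes of small nucleolar RNAs, Epb41l4aos (1.35) and Gas5 (0.77), itself a TOP transcript, were called (median 0.70), and DESeq2 called 4.

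Of 14 genes of mTOR signaling and TOP control, Eif4ebp1, a translational repressor that mTOR inactivates, was called, at 40.7 CPM in gray and 69.4, 63.4 and 67.0 in white matter (log2 fold change 0.96 ± 0.14, edgeR adjusted p = 0.0154), and the list median was 0.08. Mtor had a log2 fold change of 0.08 ± 0.26 and Larp1 one of 0.26 ± 0.16, neither called. Of 78 mitochondrial ribosomal protein genes, which are a separate family, edgeR and DESeq2 called 0, 11 had an unadjusted p under 0.05 (15.4% of all genes) and the median was 0.17. They took 0.383% of microglia UMIs in gray matter against 0.379%, 0.369% and 0.375% in white matter. In oligodendrocytes edgeR and DESeq2 called 0 genes of these lists in either tissue contrast, with at most 2 genes of a list at an unadjusted p under 0.05. Between genotypes, Mrpl53 alone of the 78 was called in white matter (0.888% of all genes called). It was 0.773 to 3.29 CPM in WT libraries and 103 to 115 in Rag1-/- libraries of both tissues. Its log2 fold change was 6.77 in white matter and 5.74 in gray matter. Genotype coincided with the Cell Ranger version and the gene list, so these cannot be told apart here.

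Transcripts of other cells were present in the microglia libraries and moved in part with the tissue. Hemoglobin genes and Alas2 summed to 740 CPM in gray matter microglia against 82.7, 74.4 and 25.3 in white matter. Oligodendrocyte markers summed to 378 in gray matter against 403, 954 and 1664 in white matter, and the 7 listed T cell markers to 0.570 in gray and 0.579, 0.610 and 1.00 in white matter. Choroid plexus markers summed to 22.5 CPM in gray matter against 58.5, 61.8 and 97.7 in white matter. Their list includes Enpp2, which alone gave 2042 CPM in oligodendrocytes of WT gray 1, so the sum is not particular to choroid plexus. Markers of oligodendrocyte precursors summed to 1.42 in gray matter against 6.19, 10.4 and 7.65 in white matter. Astrocyte markers were lower in white matter, at 312 in gray matter against 154, 202 and 239. Neuron markers (13.6 against 4.86, 12.2 and 12.3) were also lower, and those of endothelial cells (28.5 against 34.6, 27.2 and 27.5) lay on either side. All 8 oligodendrocyte markers were above 0 in each library, Alas2 was at 0 in white 2 and white 3, and Cd3e was at 0 in all 4. The part of these transcripts in the members' values was not tested.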

How the data were processed

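The authors deposited raw UMI counts per gene and cell, with cell metadata that name the library and the cluster. Per the submitters' notes reads were processed with Cell Ranger 4 on mm10; the study's methods give Cell Ranger versions that differ between experiments. The authors removed cells with few genes, many mitochondrial reads or UMIs over a limit that differed between experiments. Here counts were summed per library over the authors' oligodendrocyte (15604) or microglia (7421) cells; 9 microglia without counts, and 4 libraries in the microglia metadata that are no sample of this series, were not used. Sums were tested with edgeR 4.0.16 (R 4.3.3; filterByExpr, TMM, glmQLFit, glmQLFTest) over all genes, 8 libraries in 4 groups or 4 in 2, so that a lone library takes the spread of the replicated groups, and with DESeq2 1.42.0 as an alternative. The scripts were tested on simulated data. Ratios between clusters, cell types and single libraries use CPM plus 1. Clusters needed 20 cells per library, except in the microglia shares weighted by cluster. No doublets were removed here.

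Members and gene lists were chosen with earlier results of these data known. Genes named in the text were the called members with the 5 largest and 5 smallest changes, those with the 5 largest mean counts in oligodendrocytes, the stalk, the paralogs and Rpsa, and the 2 largest called changes of each list; all other genes named (such as Rps19 and Rpl39 in clusters, Rpl5 and Rps15 in batches, Rack1, Mtor and Larp1) were chosen after their values were seen, and some members are not reported here. WT gray and white libraries share mouse pools, and their deviations from the group means correlated at r = 0.428 over 13069 genes. Pool and batch coincide in WT, so this r does not separate shared mice from batch. WT and Rag1-/- libraries share only a number (r = -0.0570 to 0.144).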

Additional observations from a re-analysis of the deposited data

How the results depend on the processing

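The 18 named microglia genes followed here are those that the main fit called, so their counts describe these genes alone. All 18 kept their direction in each alternative. They were called in 18 of 18 cases with RLE size factors, TMM over other genes, no filter on low counts, DESeq2 and without white 1. Fewer were called with library totals (9), in cells under 15000 UMIs (13), in cells of 4000 to 8000 UMIs (2), without white 3 (5) and within WAM (14). The count was 0 without white 2 and within Homeostatic1, Homeostatic2 and Activated. Of all genes, 2.74% were called higher with DESeq2, 12.8% without white 1, 1.67% with library totals, 1.03% at 4000 to 8000 UMIs and 1.71% within WAM. The count of called members in microglia (64) was 30 with library totals, 4 in cells of 4000 to 8000 UMIs and 0 within Homeostatic1, Homeostatic2 and Activated, and leaving out 1 library gave 1 to 78. The median log2 fold change (0.86) was 0.61, 0.78 (under 15000 UMIs), 0.60 (4000 to 8000 UMIs), 0.23 (Homeostatic1), 0.44 (Homeostatic2) and 1.07 (WAM). The clusters and the UMI range also left fewer cells; the cause was not tested. The UMI range and the adding of pseudogene counts were chosen after seeing the data.

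In oligodendrocytes, the count between genotypes in white matter (1) was 0 with library totals, with batch 1 alone and with white matter libraries alone, with or without the batch number as replicate block, was 2 with no filter on low counts, in cells of 4000 to 8000 UMIs and within Oligo1a, Oligo2b and ARO (0.730% to 0.990% of all genes called), and was 0 to 2 leaving out 1 library (2 without WT white 1, 0.767% of all genes). Its median log2 fold change (0.079) was -0.052 with batch 1 alone, 0.020 with library totals and 0.022 to 0.156 leaving out 1 library. The count between tissues was 0 to 2 in Rag1-/- mice leaving out 1 library and 2 in WT mice with the mouse-pool block, against 0 in the same libraries without it. The median difference of tissue effects went from 0.02 to -0.16 in the libraries of pools with both tissues, both with the block (-0.159) and without it (-0.161, added after seeing the data), and 0 members were called in either fit. In cells of 4000 to 8000 UMIs the share of UMIs was 5.09% (WT gray), 5.42% (WT white), 5.18% (Rag1-/- gray) and 5.81% (Rag1-/- white) in oligodendrocytes, and 9.19% (gray) and 12.9% (white) in microglia. Without the paralogs it was 4.58% in Rag1-/- gray oligodendrocytes and 9.78% in gray microglia. Depth limits Rpl39l and Rpl3l. The gray Rag1-/- arm is 1 library.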

Other observations

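Among further sequence features, the letters CCGGAA stood on either strand of the 300-base promoter of 32 of 62 members (51.6%), beside 29.6% of the genes tested in microglia and 56.5% of the mitochondrial ribosomal protein genes. The letters AAGATGG stood in 10 of 62 (16.1%, beside 7.51%) and TATAAA in 7 (11.3%, beside 6.97%). A run of C or T bases anywhere in the start site window was present in 25 of 46 members called in microglia (54.3%) and in 10 of 15 that were not called (66.7%). Rps27rt, a retrogene of Rps27 listed for both genotypes, was 21.2 to 41.0 CPM in WT oligodendrocytes, 7.54 and 11.96 in Rag1-/- batch 1 and 22.6 and 21.3 in batch 2, and Rpl10-ps3 was 10.5 to 22.5, then 5.06 and 5.62, then 13.9 and 12.8. Both were chosen after their values were seen.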
